A study of Caenorhabditis elegans with 2 samples.

Results

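The regions described here are the peaks of CEH-31 binding on the X chromosome of Caenorhabditis elegans that lie away from protein-coding promoters. They were taken from the list of peaks that the authors deposited as optimal after a test of the irreproducible discovery rate. Such a test scores how far the order of peak strength is shared between lists. A high rank in each replicate was not required, as the replicate counts given below show. A peak was a member if it was on X and its summit lay outside every promoter window, from 1000 bp upstream to 200 bp downstream of an annotated protein-coding gene start. Of 3697 optimal peaks, 776 were on X and 457 of these were members. The other 319 X peaks lay in promoter windows, 1465 autosomal peaks lay outside them and 1456 autosomal peaks lay inside. Before the reproducibility step the list called on both replicates together held 3568 X peaks outside promoters, so that 12.8% (95% Wilson interval 11.8 to 13.9) were kept as optimal, against a background of 15.1% of all 24555 pooled peaks. For autosomal peaks outside promoters the kept share was 10.3% (9.83 to 10.8).

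The data came from chromatin immunoprecipitation and sequencing of 2 biological replicates, which form the only group. Both were late embryos of hermaphrodites of strain OP370, with the genotype unc-119(tm4063) III; wgIs370, collected 5 hours after synchronization by bleaching. Every animal carried the integrated transgene wgIs370, which expresses CEH-31 with a GFP-FLAG tag at its C terminus, and the unc-119 allele. The immunoprecipitation was made with anti-GFP antibody, according to the description, while the antibody field reads ceh-31. Whole organisms were used, so that binding in a few cells and weak binding in many cells cannot be told apart. There is no untagged or mutant group, so the peaks are compared with each other and not between conditions. With 1 group no test over samples is possible. Intervals on shares of peaks are 95% Wilson intervals that cover the number of peaks only, and no difference between groups of peaks was tested.

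Transcription factors with a Bar-class homeodomain, to which CEH-31 belongs, act in the fates of particular neurons and other cells. The ceh-31 gene and its relative ceh-30 are neighbours on the X chromosome itself. In XX hermaphrodites of this species a dosage compensation complex related to condensin binds both X chromosomes and lowers their transcription. It is loaded at recruitment sites on X that share a short sequence called MEX, for motif enriched on X. tRNA genes, of which X carries many, are read by RNA polymerase III and hold promoter elements inside the gene, among them the B box.

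To show what the strongest members look like, the DNA from 100 bp before to 100 bp after the summit is printed for the 4 strongest intergenic and the 3 strongest intronic members. Bases are from the RefSeq genome of build WBcel235, plus strand, 5′ to 3′, and each peak is named by its linked gene, meaning the protein-coding gene whose body holds the summit or, failing that, the gene with the nearest start. Capitals mark a match, on either strand, to a searched motif: the MEX core GCGCAGGG (CCCTGCGC on the other strand), the Bar-class cores TAATTG and TAAACG, the general homeodomain core TAATTA, the GA repeat GAGAGA, the E-box CAGCTG or the GC box GGGCGG.
sdn-1, intergenic, chrX:10597655-10597855: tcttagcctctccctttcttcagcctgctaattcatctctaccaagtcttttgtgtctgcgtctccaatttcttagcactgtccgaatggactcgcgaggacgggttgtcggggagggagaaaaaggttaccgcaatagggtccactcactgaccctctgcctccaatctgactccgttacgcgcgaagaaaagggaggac
W02H3.3, intergenic, chrX:11094081-11094281: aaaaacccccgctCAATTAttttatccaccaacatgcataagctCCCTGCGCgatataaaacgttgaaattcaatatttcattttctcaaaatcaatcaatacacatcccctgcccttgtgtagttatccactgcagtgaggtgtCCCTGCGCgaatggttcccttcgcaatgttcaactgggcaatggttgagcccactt
C30E1.4, intergenic, chrX:16929671-16929871: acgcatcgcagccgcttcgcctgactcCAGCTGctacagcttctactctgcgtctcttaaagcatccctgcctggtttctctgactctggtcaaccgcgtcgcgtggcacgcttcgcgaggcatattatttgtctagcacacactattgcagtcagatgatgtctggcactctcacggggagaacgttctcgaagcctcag
F20B6.9, intergenic, chrX:4209159-4209359: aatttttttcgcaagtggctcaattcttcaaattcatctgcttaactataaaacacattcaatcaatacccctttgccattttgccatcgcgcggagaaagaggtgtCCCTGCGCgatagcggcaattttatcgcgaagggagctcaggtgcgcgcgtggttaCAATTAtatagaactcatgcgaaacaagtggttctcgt
F09A5.3, intron, chrX:13145309-13145509: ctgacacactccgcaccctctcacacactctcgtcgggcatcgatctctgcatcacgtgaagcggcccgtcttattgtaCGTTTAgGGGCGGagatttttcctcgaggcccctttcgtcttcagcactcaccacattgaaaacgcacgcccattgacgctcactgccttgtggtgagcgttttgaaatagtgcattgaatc
mom-1, intron, chrX:6296441-6296641: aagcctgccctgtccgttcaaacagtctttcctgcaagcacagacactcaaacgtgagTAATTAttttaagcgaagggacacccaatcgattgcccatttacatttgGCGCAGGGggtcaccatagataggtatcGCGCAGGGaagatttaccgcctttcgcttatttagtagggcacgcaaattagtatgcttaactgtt
ldb-1, intron, chrX:11031328-11031528: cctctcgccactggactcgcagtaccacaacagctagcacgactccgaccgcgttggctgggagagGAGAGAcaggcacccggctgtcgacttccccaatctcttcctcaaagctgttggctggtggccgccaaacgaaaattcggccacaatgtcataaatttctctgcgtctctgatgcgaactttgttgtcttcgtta

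The capitals show that 3 of these 7 windows, at W02H3.3, F20B6.9 and mom-1, held the MEX core, at W02H3.3 and mom-1 in 2 copies. The window at sdn-1, with the highest signal of all members, held none of the searched motifs. The next 3 windows show further kinds of member: a strong MEX peak upstream of xol-1, the strongest peak at a tRNA gene with a B box (capitals GTTCGANNC near its 3′ end, with GA repeats near its 5′ end), and a peak with TTCCCGCC, an E2F-type core that was the rarest searched motif. The first 2 of them were chosen after their values were seen.
xol-1, intergenic, chrX:8036308-8036508: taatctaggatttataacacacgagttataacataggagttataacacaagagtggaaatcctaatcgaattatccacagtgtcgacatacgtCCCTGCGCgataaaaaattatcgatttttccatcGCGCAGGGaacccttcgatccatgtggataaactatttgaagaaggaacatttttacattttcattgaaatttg
C04A11.5, intergenic, at a leucine tRNA gene, chrX:13665472-13665672: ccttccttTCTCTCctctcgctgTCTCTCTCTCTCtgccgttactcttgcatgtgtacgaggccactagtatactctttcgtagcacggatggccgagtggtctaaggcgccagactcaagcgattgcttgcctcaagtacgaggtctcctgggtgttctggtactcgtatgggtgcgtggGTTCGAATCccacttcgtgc
suca-1, intergenic, chrX:10901045-10901245: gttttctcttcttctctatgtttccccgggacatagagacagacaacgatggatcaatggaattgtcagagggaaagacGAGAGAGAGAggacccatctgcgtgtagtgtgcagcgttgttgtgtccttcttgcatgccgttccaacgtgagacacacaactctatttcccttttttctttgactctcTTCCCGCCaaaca

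Peaks with the MEX core were frequent among the strongest members. The core was present within 100 bp of the summit in 14 of the 457 members (3.06%, 1.83 to 5.08), against 1 of 914 flanking windows of the same length 1000 bp to either side (0.109%, 0.0193 to 0.617). Among X promoter peaks 5 of 319 held it (1.57%, 0.671 to 3.62), and among autosomal peaks outside promoters 5 of 1465 (0.341%, 0.146 to 0.796). Over all 3697 optimal peaks the share was 0.730%. The 14 members were not spread evenly over the range of signal: 7 of the 20 strongest members held the core (35%, 18.1 to 56.7), against 2 of the next 80 (2.5%, 0.688 to 8.66) and 5 of the remaining 357 (1.4%, 0.6 to 3.24). Members with the core had a median signal of 407.1, against 136.3 for members without it.

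The signals of the 7 strongest were close in both replicates. The peak at W02H3.3, 4005 bp downstream of that gene's start, had an optimal signal of 635.3 and signals of 286.4 in replicate 1 and 348.8 in replicate 2. The peak inside intron 7 of mom-1, which encodes a Porcupine-type acyltransferase needed for Wnt secretion, had 570.3, with 295.4 in replicate 1 and 279.2 in replicate 2. The peak 1774 bp upstream of F20B6.9 had 561.0, with 258.1 and 302.7 in replicates 1 and 2. These 3 peaks ranked between 50 and 90 of all replicate 1 peaks and between 35 and 83 of all replicate 2 peaks.

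The next, in a coding exon of the polyketide synthase gene pks-1, had a signal of 472.8 (243.4 in replicate 1 and 228.6 in replicate 2) and lay 15190 bp from the nearest gene start, the greatest such distance among the members. The peak 3923 bp downstream of the start of gtr-1 had 448.1 (226.1 and 225.6 in replicates 1 and 2). The peak 4905 bp upstream of xol-1, the switch gene that sets sexual fate from the number of X chromosomes in the embryo, had 437.0 (222.4 and 214.7). In the xol-1 window printed above, 2 copies of the core stand on opposite strands, the nearer 4 bp from the summit. Here the GC content was 35.8%, well under the member median of 47.3%.

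The remaining MEX members were Y41G9A.17 (431.5 and, 212 bp away, a second summit of 103.0), F22H10.2 (382.8), dpy-23 (212.6), the collagen gene col-185 (180.8), svh-5 (144.5), Y62H9A.9 (140.7) and WBGene00020828 (123.2). All but the second Y41G9A.17 summit were among the 3697 strongest peaks of both replicates. So the core occurred over nearly the whole range of signal, with 8 of its 14 members at 382.8 or more and 6 at 212.6 or less.

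**Figure D1:**
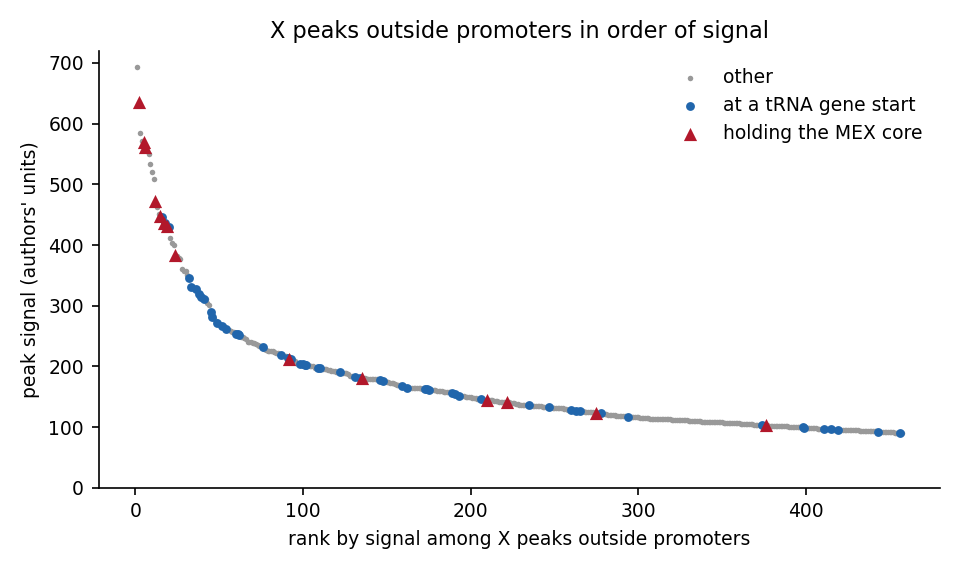
The 457 X peaks outside promoters are placed from left to right by rank, with their optimal signal on the y axis; red triangles hold the MEX core, blue points have their summit within 200 bp of a tRNA gene start, and grey points are the others. MEX peaks make up 7 of the 20 strongest, and tRNA peaks are most frequent in ranks 21 to 100 (20 of 80).

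Seen from the sequence, X held 81 copies of GCGCAGGG, or 4.57 per Mb, and the autosomes 233, or 2.82 per Mb. An optimal summit lay within 100 bp of 24 of the X copies (29.6%, 20.8 to 40.3), against 8 of the autosomal copies (3.43%, 1.75 to 6.63). Outside promoter windows the counts were 19 of 67 on X (28.4%, 19 to 40.1) and 4 of 180 on autosomes (2.22%, 0.867 to 5.57). On single autosomes the share ran from 0 of 64 copies on V to 3 of 46 on III. In the pooled list before the reproducibility step a summit lay near 42% of the X copies (31.8 to 52.8) and near 13.7% of the autosomal copies (9.9 to 18.7). The intervals for X and autosomes did not overlap in any of these comparisons. Most X copies, 57 of 81, had no optimal summit within 100 bp.

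Members at tRNA genes formed a second group. A summit within 200 bp of a tRNA gene start was found for 56 members (12.3%, 9.56 to 15.6), against 10 of 319 X promoter peaks (3.13%, 1.71 to 5.67), 51 of 1465 autosomal peaks outside promoters (3.48%, 2.66 to 4.55) and 8 of 914 positions 1000 bp to either side of the members (0.875%, 0.444 to 1.72). Counted by gene the shares lay closer together, with overlapping intervals: 69 of 276 X tRNA genes had an optimal summit of any kind (25%, 20.3 to 30.4), against 77 of 336 autosomal ones (22.9%, 18.7 to 27.7) and a background of 23.9% over all 612. X carried 276 of the 612 tRNA genes and 776 of the 3697 optimal peaks. Of the X tRNA genes 59 had a member (21.4%, 17 to 26.6), while 51 autosomal ones had a peak outside promoters (15.2%, 11.7 to 19.4).

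The tRNA members were centred on the gene itself, with a median summit 7 bp downstream of the start and the middle 50% between 22.5 bp upstream and 42.75 bp downstream. They were strong: their median signal was 186.9 (middle 50% 135.3 to 255.2), against 133.5 for the 401 members away from tRNA starts (108 to 183.7). In both replicates' strongest lists stood 49 of the 56 (87.5%). Leucine tRNA gene C04A11.t1 had the highest signal, 446.6, with 229.3 in replicate 1 and 214.8 in replicate 2. It was followed by the asparagine tRNA gene F41D9.t3, in an intron of the anion transporter gene sulp-3 (436.3; 231.4 and 203.8 in replicates 1 and 2), and by the glutamine tRNA gene R04A9.t1, in an intron of ZK1193.2 (430.1; 243.2 and 186.5). In all 3 replicate 1 gave the higher value.

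Every one of the 20 standard amino acids had at least 1 X tRNA gene nearest to a member. By count, glycine had 6 of 20 genes, serine 5 of 18, leucine 4 of 17, proline 4 of 20 and threonine 4 of 14. As a share of the genes of a type, tyrosine with 3 of 8 and phenylalanine with 2 of 6 were above glycine, and arginine had 3 of 27. The B box letters GTTCGANNC were found in 38 members (8.32%, 6.12 to 11.2), against 11 of 914 flanking windows (1.2%, 0.673 to 2.14); only 3 of the 401 members away from tRNA starts held them. This motif was added after the tRNA counts were known.

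Annotated non-coding RNA genes, a large class of mostly unnamed transcripts, gave a similar picture. A start of this class lay within 200 bp of 136 members (29.8%, 25.8 to 34.1), against 19.1% of X promoter peaks (15.2 to 23.8), 17.9% of autosomal peaks outside promoters (16 to 19.9) and 6.02% of the members' flanking positions (4.65 to 7.75). The 2 groups overlap, since 29 of these 136 were also at a tRNA start. Away from tRNA starts, 107 of 401 members (26.7%, 22.6 to 31.2) were at a start of this class. X is rich in such genes, with 2520 of them, and the share with a member, 6.43% (5.54 to 7.45), stood beside the 6.1% of 5244 autosomal genes with a peak outside promoters (5.49 to 6.78). The sdn-1 peak lay 35 bp downstream of the start of one, M79.11, and the F13D11.3 and tbc-12 peaks lay 34 and 1 bp upstream of F13D11.9 and F52H2.13. Small nucleolar RNA genes went the other way: 0 of 457 members were at one, which allows a share of up to 0.656% if 3 counts are taken as the limit and up to 0.834% by the Wilson interval, against 47 of 1465 autosomal peaks outside promoters (3.21%, 2.42 to 4.24). X carried 33 of these genes and the autosomes 313.

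In strength the members were like the autosomal peaks outside promoters and a little below the promoter peaks. Their median signal was 137.2 (middle 50% 108.5 to 193.9), against 163.1 for X promoter peaks (117.7 to 225.3), 138.2 for autosomal peaks outside promoters (108 to 195.3) and 165.4 for autosomal promoter peaks (118.6 to 252.9). The signal is the authors' score and its scale is not stated. Members ran from 90.72 to 693.0. No member came near the highest autosomal promoter peak, at 3595, while the X promoter peaks ended lower than the members, at 590.7. Among the 370 strongest optimal peaks were 32 members (7%, 5 to 9.72), against 8.46% of X promoter peaks (5.88 to 12) 5.32% of autosomal peaks outside promoters (4.29 to 6.6) and 16% of autosomal promoter peaks (14.2 to 18); these 370 were 10% of all optimal peaks.

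**Figure D2:**
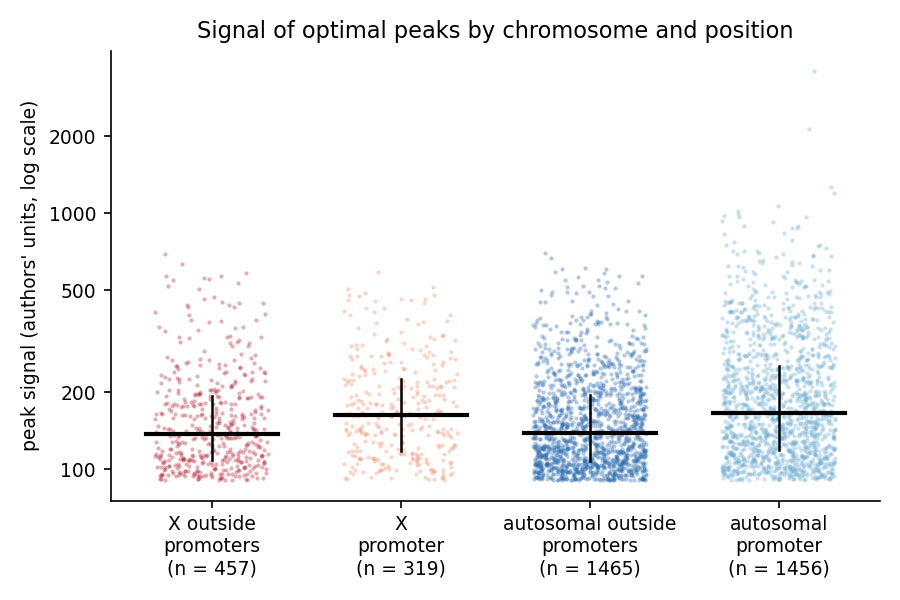
Optimal signal of each peak (log scale, authors' units) in the 4 groups of peaks; points are peaks, the horizontal bar is the median and the vertical bar the middle 50%. The X peaks outside promoters, with a median of 137.2, sit beside the autosomal peaks outside promoters (138.2) and below both promoter groups (163.1 and 165.4).

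The replicate signals were set side by side as deposited, though nothing states that their lists share a scale. Of the 457, 455 had a summit within 200 bp in both replicate lists, with a median signal of 70.35 in replicate 1 and 72.29 in replicate 2. The log2 ratio of replicate 1 to replicate 2 had a median of -0.05 and a middle 50% from -0.32 to 0.24; 12 members were more than 2-fold higher in replicate 1 and 6 in replicate 2. Across these 455 members the replicate signals had a Spearman rho of 0.700, against 0.810 for X promoter peaks and 0.703 for autosomal peaks outside promoters; peaks share their libraries and are not replicates. When the 3697 strongest peaks of each replicate were taken, 346 members were in both (75.7%, 71.6 to 79.4), against 87.5% of X promoter peaks (83.4 to 90.7) and 76% of autosomal peaks outside promoters (73.7 to 78.1). Of the rest 57 were in that of replicate 1 alone, 48 in that of replicate 2 alone and 6 in neither. All of the 100 strongest members were in both, against 246 of the other 357 (68.9%). The ranking used the optimal signal, which was high where both replicate signals were high. Presence of the strongest members in both lists was therefore nearly set by the ranking.

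**Figure D3:**
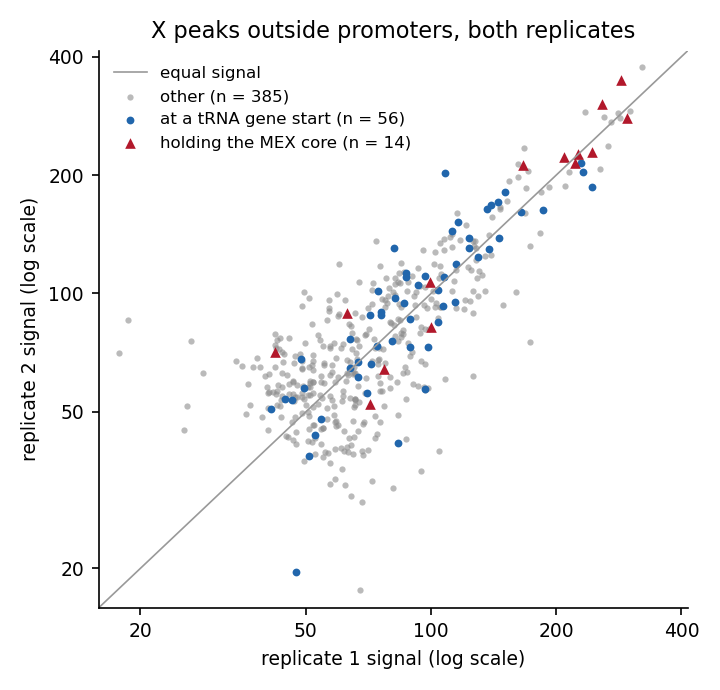
Signal in replicate 1 (x axis) and replicate 2 (y axis), both on log scales, for the 455 X peaks outside promoters with a summit in both replicate lists; the line marks equal signal, red triangles hold the MEX core and blue points lie at tRNA gene starts. The strong peaks follow the line and the weaker ones scatter to both sides of it.

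The share of peaks outside promoters was 58.9% of 776 X peaks (55.4 to 62.3), against 50.2% of 2921 autosomal peaks (48.3 to 52). By chromosome it was 55.9% on IV (51.7 to 60), with an interval that overlaps that of X, and 48.1%, 50.4%, 48.6% and 48.3% on I, II, III and V. Promoter windows leave 82.4% of the X sequence outside and 77.7% of the autosomal sequence. Members were spread at 25.8 per Mb, against 22.2, 18.6, 21.8, 17.5 and 11.4 peaks outside promoters per Mb on I, II, III, IV and V. Along X they were fairly even: in consecutive stretches of 3 Mb from the left end there were 75, 89, 78, 74, 82 and 59, the last stretch being 2.72 Mb long.

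More of the members lay between genes. The summit was intergenic for 265 (58%, 53.4 to 62.4) and in an intron for 171 (37.4%, 33.1 to 41.9), against 702 (47.9%) and 693 (47.3%, 44.8 to 49.9) of 1465 autosomal peaks outside promoters. The sequence itself differs in the same direction, since 39.2% of the X sequence outside promoter windows and 30.2% of the autosomal is intergenic. Coding exons held 12 members (2.63%), 5′ untranslated regions 8 and 3′ untranslated regions 1. Median signals were 142 for intergenic and 136.2 for intronic members. Of the members, 51 (11.2%, 8.59 to 14.4) lay in the same window around another annotated transcript start of a protein-coding gene, against 11.7% of autosomal peaks outside promoters (10.1 to 13.4). An example is the 5′ untranslated region summit in the magnesium transporter-like gene cnnm-3 (275.0), 5089 bp from the gene start and 11 bp from another transcript start.

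**Figure D4:**
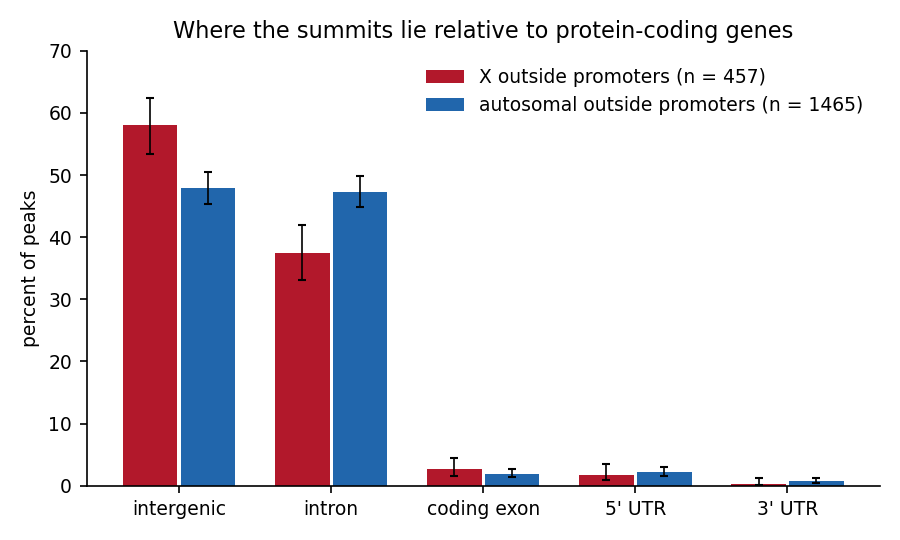
Percent of peaks (bars, with 95% Wilson intervals that cover the number of peaks only) by where the summit lies, for X peaks outside promoters in red on the left of each pair and autosomal peaks outside promoters in blue on the right. Intergenic summits make up 58% in the first and 47.9% in the second, and intronic summits 37.4% and 47.3%.

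Distances to the nearest gene start were moderate. The median was 2833 bp (middle 50% 1645 to 5058), against 2592 bp for autosomal peaks outside promoters (1450 to 4678). Between 5 and 10 kb away were 103 members (22.5%, 18.9 to 26.6), against 16.7% of the autosomal ones (14.9 to 18.7); beyond 10 kb were 12 members (2.63%, 1.51 to 4.53), against 5.26% (4.23 to 6.52). Intronic members lay in introns with a median length of 2237 bp, against 2784 bp for the autosomal ones, and 93 of 171 were in a first intron (54.4%, 46.9 to 61.7), against 46.2% (42.5 to 49.9).

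At the edges of the window, membership turned on a few bases. The members nearest to an edge were K10B3.5 (1 bp outside, signal 165.9), the fibroblast growth factor gene egl-17 (18 bp, 261.4) and aex-3 (26 bp, 98.29). The X promoter peaks nearest to an edge were fbxb-58 (2 bp inside, 291.4), mai-1 (17 bp, 210.2) and col-185 (18 bp, 109.3).

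Besides the MEX and tRNA peaks, the 20 strongest members included genes of several kinds. The highest was the peak 4421 bp upstream of sdn-1, which encodes the cell-surface proteoglycan syndecan, with 693.0 (321.4 in replicate 1 and 376.5 in replicate 2). C30E1.4 had 583.7, 143 bp upstream of the non-coding RNA gene C30E1.9. The peak in the first intron, 9659 bp long, of F09A5.3 had 571.0 (281.2 and 287.1 in replicates 1 and 2), 138 bp upstream of the non-coding RNA gene F09A5.11. It also lay 315 bp upstream of the microRNA gene cel-mir-54. K02D3.1 followed with 555.3.

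The peak 2972 bp upstream of sma-9, a Schnurri-type zinc finger cofactor of BMP signalling, had 550.1 (260.5 and 281.3). The peak 3607 bp upstream of cnnm-3 had 533.6, that at F13D11.3 had 520.7, and that in the first intron of ldb-1, a cofactor of LIM-domain proteins, had 508.0 (266.3 in replicate 1 and 236.7 in replicate 2). The last 2 without MEX or a tRNA gene were inso-1, in its first intron (462.7), and tbc-12, a Rab GTPase-activating protein family gene (450.8). All 20 ranked 313 or better in each replicate list.

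The cnnm-3 peak was also the member nearest upstream of ceh-30, 14120 bp from its start. Within 20 kb of ceh-30 and ceh-31 there were 3 members and no X promoter peak. A member with a signal of 196.1 lay 8228 bp upstream of ceh-31 and nearest to twk-16, a potassium channel gene. The other, with 136.3, lay in an intron of pccb-1. Transgene copies of the ceh-31 region cannot be told apart from the genomic locus in these lists.

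Several genes held groups of members. In all, 192 members lay in 143 gene bodies, of which 107 held 1, 27 held 2, 4 held 3, 4 held 4 and 1 held 5. These genes were long, with a median of 7901 bp against 2548 bp for all X protein-coding genes. The gene with 5 was W03G11.4 (signals 96.01 to 170.2). Those with 4 were F09A5.3 (116.9 to 571.0), the heterochronic gene lin-14 (127.8 to 256.1), rgs-6, a regulator of G protein signalling (95.39 to 240.6), and vab-3, the Pax6 homologue (98.74 to 143.8). By summed signal ldb-1 came first among the genes with 3 (95.45 to 508.0). The longest run of members spaced by at most 5 kb had 6 peaks over 10560 bp between F13D11.3 and hbl-1, the hunchback-like heterochronic gene, with signals of 95.03 to 520.7. In 20 pairs neighbouring members were within 500 bp, at 199 to 234 bp (median 205), and 70 autosomal pairs had a median of 202 bp. Members this close share part of their sequence and reads.

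By the link rule, 330 of 2731 X protein-coding genes (12.1%) had a member, and this share is the background for the gene lists. In comparison 329 X genes had an optimal summit in their promoter window, and 48 genes had both. A longer gene can hold more summits, so the median gene length is given for the lists at both ends of the range. Intergenic members, 265 of the 457, were linked by the nearest start instead. The length of the gaps beside the listed genes was not taken into account. No list was tested, and the lists hold X genes only.

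Transcription factor genes differed by family. Of 27 nuclear hormone receptor genes 12 were linked (44.4%, 27.6 to 62.7; median length 4321 bp), with 21 members in all. The highest were nhr-17 (328.4; 182.8 in replicate 1 and 142.2 in replicate 2), nhr-3 (302.0; 140.4 and 156.6) and daf-12, the receptor that controls the dauer decision (266.8; 139.7 and 125.1). Of 30 homeodomain genes, CEH-31's own class of protein, 2 were linked (6.67%, 1.85 to 21.3; median length 3486 bp). They were mls-2, with 1 intronic member of 145 (56.82 in replicate 1 and 90.05 in replicate 2), and vab-3, whose strongest member had 143.8 (64.58 and 79.17 in replicates 1 and 2). Neither ceh-30 nor ceh-31 was linked.

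Among 10 basic helix-loop-helix genes, 3 were linked: the proneural atonal homologue lin-32 (214.0), hlh-29 (163.9) and the Mad-like gene mdl-1 (96.51). Of 28 other transcription factor genes, 7 were linked (25%, 12.7 to 43.4), led by sma-9, the early growth response gene egrh-1 (357.0) and the ETS gene ets-5 (345.3). This list was not complete: the heterochronic genes lin-14 (256.1) and hbl-1 (216.4) were linked to members but were not on it. The summits at lin-32 and ets-5 lay 7 and 10 bp from the starts of an aspartate and an isoleucine tRNA gene, so the link to the protein-coding gene is by distance only.

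Genes of sex determination and dosage compensation were few on X, and 3 of 6 were linked (50%, 18.8 to 81.2; median length 5432 bp): xol-1, the RNA-binding X signal gene fox-1 (148.2; 69.87 and 79.09 in replicates 1 and 2) and the nuclear receptor X signal gene sex-1 (113.2; 42.51 and 76.25). xol-1 had a second summit of 132.4, 203 bp from the first and 146 bp from the start of an arginine tRNA gene.

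Neuronal genes ranged widely between lists. Of 14 synaptic vesicle and secretion genes, 8 were linked (57.1%, 32.6 to 78.6; median length 6316 bp), led by the diacylglycerol kinase gene dgk-1 (304.3), the presynaptic kinase gene sad-1 (234.1) and unc-10, the RIM homologue of the active zone (225.1). The paired dgk-1 summits share 1 replicate 1 summit. Of 25 axon guidance and adhesion genes, 8 were linked (32%, 17.2 to 51.6; 5800 bp), led by sdn-1, the immunoglobulin-domain gene igcm-1 (268.0) and sax-3, the Robo receptor (239.5).

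Ion channel and gap junction genes were linked in 7 of 66 cases (10.6%, 5.23 to 20.3), close to the background. They were led by lgc-21 (327.5, at a lysine tRNA gene), twk-16 (196.1) and lgc-47 (173.1). Peptide and amine receptors had 6 of 49 (12.2%, 5.73 to 24.2), with npr-19 (149.1), the tyramine receptor tyra-3 (117.7) and aexr-3 (117.2, at a proline tRNA gene). Neuropeptide genes had 2 of 38 (5.26%, 1.46 to 17.3; median length 834.5 bp), flp-19 (169.0) and nlp-14 (116.7), and chemoreceptors 2 of 33 (6.06%, 1.68 to 19.6; median length 1809 bp), srd-43 (252.9, at a valine tRNA gene) and srg-64 (117.9).

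Genes of matrix, muscle and signalling lay between these. Basement membrane and proteoglycan genes were linked in 4 of 10 cases (40%, 16.8 to 68.7; median length 7258 bp), with sdn-1, the hemicentin gene him-4 (319.3, at an alanine tRNA gene) and the dystroglycan gene dgn-1 (124.5). Cuticle collagens had 3 of 30 (10%, 3.46 to 25.6): col-181 (313.8, at a lysine tRNA gene), col-185 and dpy-3 (117.6). Muscle genes had 4 of 18 (22.2%, 9 to 45.2), with the dense-body protein gene unc-97 (191.6), the troponin I gene tni-1 (144.0) and the actin gene act-4 (105.5). Developmental signalling genes had 6 of 19 (31.6%, 15.4 to 54), with mom-1, sma-9 and the Cbl-type ubiquitin ligase gene sli-1 (328.2). Neither of the 2 ribosomal protein genes, with a median length of 750 bp, was linked.

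Over all members, the homeodomain letters themselves were no more frequent at summits than beside them. TAATTG was in 71 member windows (15.5%, 12.5 to 19.1), against 18.6% of flanking windows (16.2 to 21.3), a ratio of 0.835. TAAACG was in 6.56% (4.64 to 9.22), against 7.77% of the flanks (6.2 to 9.69). Either form together gave a ratio of 0.841. In X promoter peaks TAATTG was in 5.96% of summit windows (3.85 to 9.11), against 16% of their flanks (13.3 to 19), and in autosomal peaks outside promoters in 12.4% (10.8 to 14.1), against 14.6% (13.4 to 16). Members with TAATTG had a median signal of 119.6, against 140.8 for members without it. These are letters in a window of a certain length and not binding sites. Member windows had more G and C than their flanks (median 47.26% against 34.08%). TTAAAA, made of A and T only, had a ratio of 0.223. The part of base composition in the homeodomain ratios was not tested.

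The GA repeat GAGAGA was the searched motif found in most members, 188 (41.1%, 36.7 to 45.7), against 9.63% of flanking windows (7.88 to 11.7). It was in 45.8% of X promoter peaks (40.4 to 51.3) and 54.5% of autosomal peaks outside promoters (52 to 57.1), the last with an interval above that of the members. The GATA core TGATAA went the other way, in 10 members (2.19%, 1.19 to 3.98), against 17.6% of flanking windows (15.3 to 20.2). It was also less frequent at summits than in flanks for X promoter peaks (3.13% against 19.1%) and autosomal peaks outside promoters (4.71% against 16%). The GC box GGGCGG was in 7.88% of members (5.74 to 10.7), against 3.5% of flanks (2.49 to 4.9). For X promoter peaks these shares were 7.52% and 2.66%, and for autosomal peaks outside promoters 12.8% and 4.57%. The E-box CAGCTG (5.91% against 4.16%) and the forkhead core TGTTTAC (2.63% against 2.95%) had overlapping intervals at summits and in flanks.

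Base composition also differed between summits and flanks. Member windows had a median GC content of 47.26%, against 34.08% in their own flanks; the values were 48.76% and 36.32% for X promoter peaks and 46.77% and 35.57% for autosomal peaks outside promoters. The part of base composition in the motif shares was not tested. Members with the MEX core had a median GC content of 44.5%, against 47.3% for those without. Of all 2080 sequences of 6 letters, counted with their reverse complements, the highest ratio among those in at least 30 members was for CGTCTC, in 105 members (23%, against 3.28% of flanks, a ratio of 7). That ratio was 5.77 in X promoter peaks and 4.74 in autosomal peaks outside promoters. The lowest ratio was that of TGATAA, at 0.124, against 0.164 in X promoter peaks and 0.294 in autosomal peaks outside promoters.

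**Figure D5:**
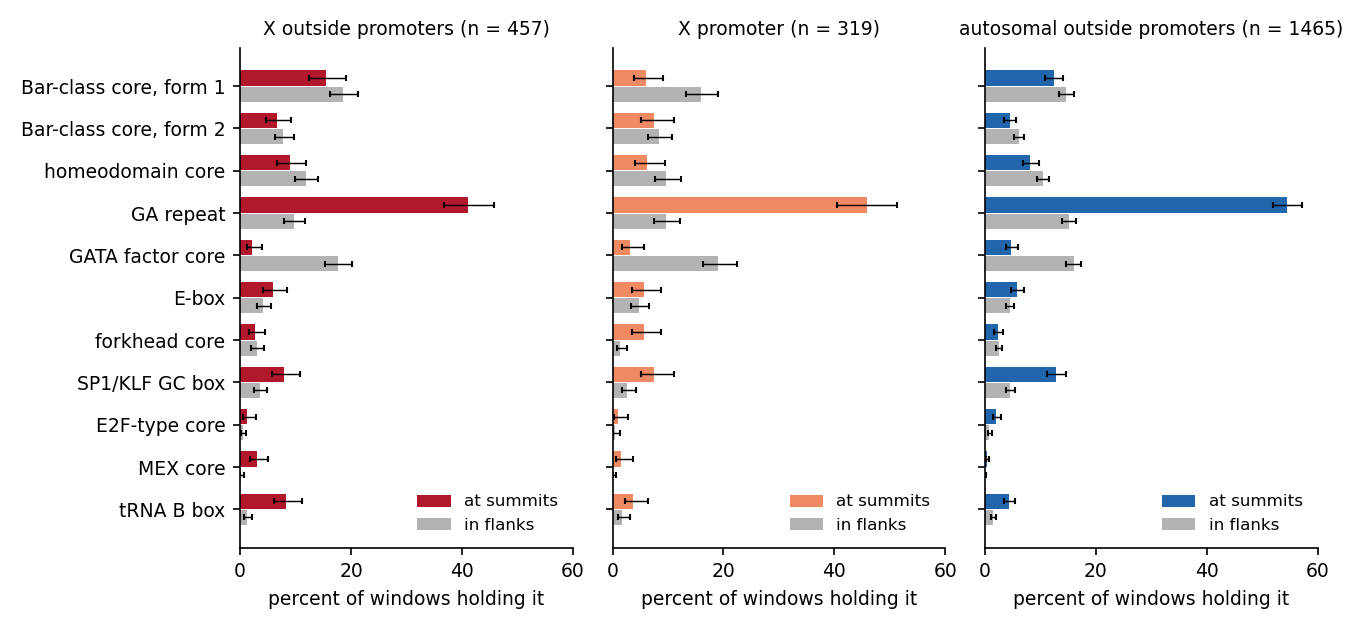
Percent of windows from 100 bp before to 100 bp after the summit that hold each searched motif (coloured bars) and of windows of the same length 1000 bp to either side (grey bars), with 95% Wilson intervals that cover the number of windows only; panels from left to right are X peaks outside promoters, X promoter peaks and autosomal peaks outside promoters. Forms 1 and 2 of the Bar-class core are TAATTG and TAAACG. The GA repeat is the tallest coloured bar in each panel, and the MEX core has a visible bar in the X panels.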

How the data were processed

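Binding of tagged CEH-31 was measured by ChIP-seq in 2 replicates of 1 group. The authors deposited narrowPeak lists in builds ce10 and ce11, and only the ce11 lists were used. Per the text files deposited beside the lists, each replicate and the combined reads gave a relaxed list, called with a control, from which the optimal one came. Each row holds the authors' signal per peak, a −log10 q-value as the authors' caller wrote it, and a summit offset. The sources used here do not state the aligner, caller, versions or reproducibility threshold; the control was not analysed here and read depth is unknown. Of the members, 406 share the highest −log10 q, 3.829, so q could not rank them and signal was used.

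Summits were joined to Ensembl release 115 gene models of WBcel235 and to the RefSeq genome with Python 3.11.15, pandas 2.3.3 and numpy 2.4.6, and plots were drawn with matplotlib 3.10.9. Wilson intervals came from scipy 1.17.1. All 612 tRNA genes were matched to RefSeq, though 3 of those on X had no amino acid product named. A small-RNA gene or replicate summit within 200 bp counted as shared. Motifs were searched on both strands within 100 bp of summits and of points 1000 bp away. The functions were tested on simulated peaks. Named were the 20 strongest members, the 6 genes holding most members, the 3 strongest linked genes of each of 16 lists, members within 20 kb of ceh-30 and ceh-31, and the 3 peaks on each side of the window edge. Members with the MEX core, tRNA members and other examples were named after their values were seen. Members and lists were chosen with earlier results of these data known, and after their counts were seen 1 transcription factor name pattern was corrected and the homeodomain list was extended with 4 genes that RefSeq names as homeobox genes. Printed sequences leave out members whose window touches an untranslated region. Alternatives tried were other promoter windows, stricter or merged peaks and single replicates.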

Additional observations from a re-analysis of the deposited data

How the results depend on the processing

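Of the 60 alternative values computed, 43 stayed within the interval of the reported value or within 1.5 times the reported count. With narrower windows (500 bp upstream to 100 bp downstream) 69.3% of X peaks lay outside, with wider ones (2000 to 500 bp) 47.4% and with every transcript start 52.2%; the pooled autosomal shares were 59%, 37.5% and 43.8%, so X was above the pooled autosomes under each. Intronic shares of members were 32.3%, 44.3% and 31.1% under these windows. Among the optimal peaks above the median signal there were 200 members with a median signal of 203.1, 53.1% of X peaks were outside, 171 genes were linked and 99.5% of members were in both replicates' strongest lists. The lower counts and higher median follow from the filter itself, and the higher share in both lists was nearly set by it. With peaks required in the other replicate alone, leaving out 1 replicate gave a median signal of 147.8 to 149 and a share in both lists of 85.9% to 87.8%. This filter keeps only peaks already in 1 of the 2 lists, so the share in both lists could not fall. It drops peaks that were weak in that replicate, so a higher median was largely set by it. With 100 bp for a shared summit that share was 71.1%. Merging summits within 300 bp put the share of pooled peaks kept at 14%. By definition, narrower windows could only raise the share outside, and wider windows or every transcript start could only lower it. A shorter distance for a shared summit could likewise only lower the share in both lists. The cause of the other shifts was not tested. The Bar-class ratio ran from 0.754 to 0.949. Leaving out members at tRNA genes, an alternative chosen after seeing the data, gave a ratio of 0.901, a median signal of 133.5 and 37.4% in introns.

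No paired analysis was possible because the 2 replicates belong to 1 group and no test compares groups. The scale of the signal is not stated, so comparisons of signal between the replicate lists rest on the values as deposited, and intervals cover the number of peaks, not the depth of reads.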
